A study of Brassica napus with 17 samples.

Results

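Callus-forming cultures of Brassica napus were compared at a late and an early time after treatment with trichostatin A (TSA). The comparison sets the 2 libraries of day 8 against the 3 libraries of day 2, which makes 5 of the 17 RNA-seq libraries of the series. They were chosen by their titles, as the TSA cultures that the labels place in 1 named sequencing run. All cultures were started from late unicellular microspores of genotype DH12075 and are called LEC1-GFP cultures in the labels. In both groups TSA was present together with a heat treatment of 33 °C that lasted 24 hours, and it was then removed with the medium. The day 2 cultures had received 0.5 µM TSA and spent 1 further day at 25 °C. The day 8 cultures had received 0.05 µM TSA and spent 7 further days at 25 °C. Time in culture and dose therefore changed together, and their parts in any difference below cannot be told apart. The label for cell type, a mix of microspores and embryogenic cells, is the same in both groups. The series design calls the replicates biological, but no separate donor plant or culture is named. The p-values therefore measure the spread between libraries, which may be in part technical. For the tests of single genes that spread was estimated over all 17 libraries of the series.

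TSA blocks histone deacetylases, enzymes that remove acetyl groups from histones, and acetylated chromatin is in general more open to transcription. Isolated microspores, the precursors of pollen, can leave the pollen pathway after a heat stress and divide into embryos or callus. B. napus is an allotetraploid that carries an A and a C subgenome, so that most genes have near-identical copies.

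The other 12 libraries are 3 untreated ones of day 0, 3 heat-only ones each of day 2 and day 4, and 3 of heat with TSA at day 4. For the last group the sample titles and the treatment field give different TSA doses. Total counts were 25117022, 25189108 and 13707782 at TSA day 2 and 14142177 and 21839207 at TSA day 8, within a series that ran from 2716279 to 31407037. In log2 level across genes, which are not independent replicates, the day 8 pair correlated at 0.955 and the day 2 pairs at 0.957 to 0.986. Correlations between a day 8 and a day 2 library were 0.663 to 0.752. Both groups were spread over lanes of the same run (lanes 4, 5 and 6 for day 2, lanes 4 and 5 for day 8), so run and lane do not separate them.

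Some features of the libraries touch the results. A set of 185 gene IDs had no count in any of the 15 other libraries, which hold 308337791 counts together, but a mean of at least 1 CPM (counts per 1000000, on TMM-scaled library sizes) at day 8. Of these 185 IDs, 149 reached 1 CPM in each day 8 library and 24 had a mean of at least 10 CPM, with a highest mean of 117 CPM. The same search gave 3 IDs for heat-only day 4 and 0 for each of the 4 remaining groups. Conversely, 215 IDs had no count at day 8 but at least 1 CPM in each other group. That search gave 54 IDs for day 0 and 0 for each of the 4 other groups. The day 8 replicates differed more than the day 2 replicates did, though not more than all other pairs. Among genes at 10 CPM or more, 10.2% differed by at least 1 log2 unit between the day 8 libraries, against 0.738% to 4.63% for the pairs of day 2 libraries and 0.476% to 20.4% for those of heat-only day 4. Stretches of neighbouring genes that were low together, or that differed between libraries of the same group, are described further on, and they include a difference among the day 2 libraries along C02. The labels give 1 genotype to all samples and say nothing more of the plants the cultures came from. Whether the day 8 cultures came from the same plant material as the day 2 cultures was not tested, and such a difference cannot be told apart from time and dose. The main counts are given with and without the genes of the stretches low in both day 8 libraries. The other genes concerned were not left out.

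The first question was how far the transcriptome at day 8 differed from that at day 2. Of 64330 genes tested, 37010 were called at an adjusted p under 0.05 by the quasi-likelihood test of edgeR with Benjamini-Hochberg adjustment, which is 57.5% of the genes tested. Of these, 15666 rose (24.4% of the genes tested) and 21344 fell (33.2%). Large changes were mostly falls. At 1 log2 unit or more 10556 called genes rose and 18332 fell, at 2 units 5129 rose and 14062 fell, at 4 units 2029 rose and 8591 fell, and at 6 units 980 rose and 4355 fell. The remaining 27320 genes did not pass the test. The libraries of day 2 and day 8 did not overlap in 36105 of the called genes. Over all genes tested 69.3% were without overlap.

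The excess of falls lay among genes of low count. Of the 17823 genes with a mean under 1 CPM over the 5 libraries, 51.3% were called, and 20.0% of those calls were rises. The share of rises was 45.7% of the calls between 1 and 10 CPM and 55.6% between 10 and 100 CPM. It was 60.6% among the 1005 genes at 100 CPM or more, of which 71.4% were called. The median log2 fold change moved with level too, from -1.70 in the lowest class to 0.30 in the highest. Estimates were least precise in the lowest class, with a median SE of 0.94 log2 units against 0.22 in the highest. When only genes that averaged 1 CPM or more in either group were tested, 48.2% of 32719 calls were rises, against 42.3% of the 37010 calls.

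**Figure D1:**
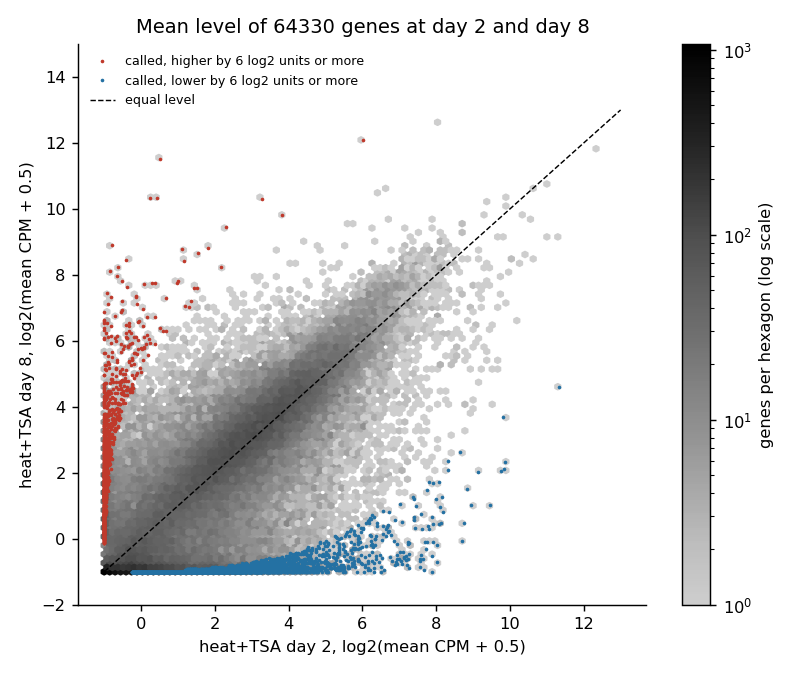
Mean level of each tested gene at TSA day 2 (x axis) and TSA day 8 (y axis), both as log2 of mean CPM plus 0.5, with the number of genes per hexagon in grey on a log scale. Called genes that changed by 6 log2 units or more are coloured: 980 rose (red) and 4355 fell (blue), and the blue points form the band along the lower edge, where day 8 had few or no counts.

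Fewer genes were detected at day 8. After each library was thinned at random to 10000000 counts, the day 2 libraries had 68430, 67874 and 68019 genes with at least 1 count, and the day 8 libraries had 58036 and 57979. Every day 8 library was below every day 2 library. The means were 68108 ± 288 genes (SD, n = 3) and 58008 ± 40.3 genes (SD, n = 2), and the exact two-sided permutation test gave p = 0.2, the smallest value that 3 against 2 libraries allow. With at least 5 counts required, the means were 54145 ± 165 (SD, n = 3) and 47154 ± 636 (SD, n = 2). The weight of the most abundant genes differed less. The 100 most abundant genes of each library held 9.96%, 10.9% and 9.74% of its counts at day 2 and 9.35% and 9.78% at day 8, and the groups overlapped (exact two-sided permutation test, p = 0.4). The sign of that difference depended on the number of genes, since the 1000 most abundant held 29.3% ± 0.595 (SD, n = 3) at day 2 and 30.2% ± 0.0601 (SD, n = 2) at day 8.

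**Figure D2:**
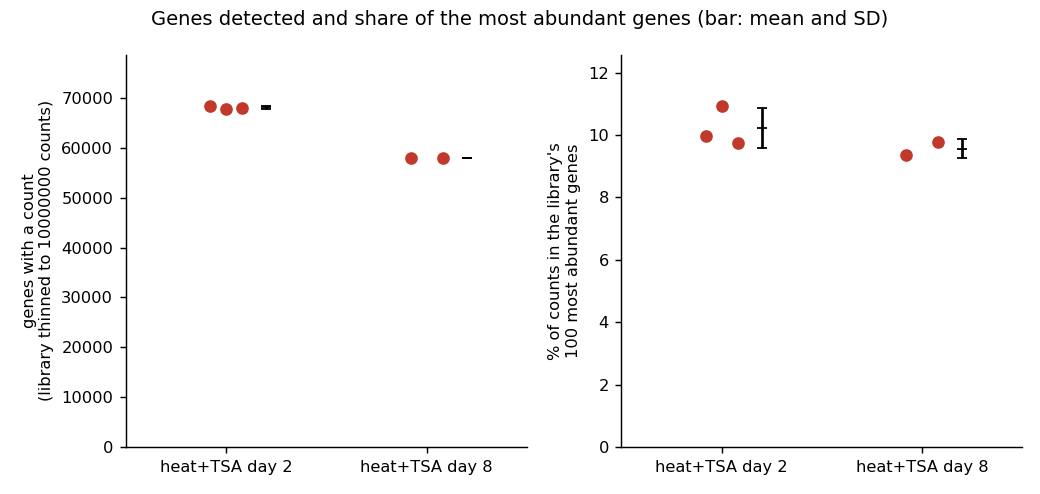
Left, genes with at least 1 count in each library thinned to 10000000 counts; right, percent of a library's counts in its own 100 most abundant genes, with each library as a point and the group mean and SD beside it. The 2 day 8 libraries have 58036 and 57979 detected genes and the 3 day 2 libraries 67874 to 68430, while the shares on the right overlap.

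Which genes were most abundant changed between the days. By count, with no correction for transcript length, the 100 most abundant genes of day 2 and of day 8 had 21 in common. Of the day 8 list, 76 genes had risen, 5 had fallen and 19 did not pass the test, which is a description since the list was chosen on its day 8 level. The median level in this list was 477 CPM at day 8 and 208 CPM at day 2. At day 2 only 9 of these genes were under 10 CPM, and 4 of those were under 1 CPM. The list held 9.33% ± 0.283 (SD, n = 2) of all counts at day 8 and 5.11% ± 0.365 (SD, n = 3) at day 2. In the other groups it held 6.14% ± 0.234 (SD, n = 3) at TSA day 4, 3.25% ± 0.401 (SD, n = 3) at day 0, 1.69% ± 0.230 (SD, n = 3) at heat-only day 2 and 0.911% ± 0.0310 (SD, n = 3) at heat-only day 4. Of the day 2 list, 79 genes had fallen, 5 had risen and 16 did not pass the test. This too is a description, since that list was chosen on its day 2 level. The day 2 list held a mean of 10.05% of all counts at day 2, 12.8% at TSA day 4 and 3.61% at day 8. Its mean share was 2.15% at day 0, 1.58% at heat-only day 2 and 1.40% at heat-only day 4. The median of the day 2 list was 587 CPM at day 2 and 124 CPM at day 8, where 11 of its genes were under 10 CPM.

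BnaCnng23250D, a gene ID to which the reference used here gives no other name, had the lowest p of all rising genes under the naming rule. Its level was 0.147, 0.153 and 0.113 CPM in the day 2 libraries, from 5, 5 and 2 counts. In the day 8 libraries it was 267 and 236 CPM, from 5036 and 6196 counts. Both day 8 libraries were far above all day 2 libraries. The log2 fold change was 10.74 (SE 0.34; adjusted p = 2.03e-11, edgeR's quasi-likelihood test with Benjamini-Hochberg adjustment), with a denominator of few counts. Every other group was low too, at 0.737 ± 0.205 CPM (SD, n = 3) at day 0, 0.143 ± 0.113 CPM (SD, n = 3) at heat-only day 2, 0.0862 ± 0.0882 CPM (SD, n = 3) at heat-only day 4 and 0.0289 ± 0.0294 CPM (SD, n = 3) at TSA day 4.

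BnaC07g04210D was the next rising ID. It measured 2.18, 2.39 and 1.59 CPM at day 2, and 119 and 173 CPM at day 8. The groups were wide apart, although the day 8 libraries differed between themselves more than the day 2 libraries did in CPM. The gene rose by 6.13 log2 units (SE 0.24; adjusted p = 5.61e-11, edgeR's quasi-likelihood test with Benjamini-Hochberg adjustment). In the other groups it lay near its day 2 level, at 2.79 ± 0.819 CPM (SD, n = 3) at day 0, 2.33 ± 0.285 CPM (SD, n = 3) at heat-only day 2, 1.14 ± 0.173 CPM (SD, n = 3) at heat-only day 4 and 1.73 ± 0.151 CPM (SD, n = 3) at TSA day 4.

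BnaA05g06640D was the falling ID of lowest p. Its day 2 libraries had 53.7, 69.4 and 70.6 CPM, and its day 8 libraries 0.796 and 0.686 CPM, the latter from 15 and 18 counts. All day 2 libraries were above both day 8 libraries by a wide margin. The gene fell by 6.44 log2 units (SE 0.23; adjusted p = 5.08e-11, edgeR's quasi-likelihood test with Benjamini-Hochberg adjustment). The remaining groups were between these levels, with 20.1 ± 2.37 CPM (SD, n = 3) at day 0, 17.5 ± 1.51 CPM (SD, n = 3) at heat-only day 2, 15.4 ± 1.04 CPM (SD, n = 3) at heat-only day 4 and 17.7 ± 1.31 CPM (SD, n = 3) at TSA day 4.

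BnaC03g66770D had 23.4, 24.0 and 25.5 CPM at day 2 and 0.372 and 0.267 CPM at day 8, the latter from 7 counts in each library. Again the groups did not overlap. It fell by 6.25 log2 units (SE 0.23; adjusted p = 5.08e-11, edgeR's quasi-likelihood test with Benjamini-Hochberg adjustment). Its highest group was day 0 with 42.0 ± 1.86 CPM (SD, n = 3). It had 15.3 ± 0.689 CPM (SD, n = 3) at TSA day 4, 8.16 ± 0.127 CPM (SD, n = 3) at heat-only day 2 and 2.71 ± 0.593 CPM (SD, n = 3) at heat-only day 4.

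KCP1 and TR1 were the only tested IDs to which the reference gave a name of their own, and both are reported whatever their test. KCP1 (BnaA02g32290D) had 1.76, 1.78 and 2.04 CPM at day 2 and 4.94 and 6.14 CPM at day 8. The groups did not overlap, and KCP1 rose by 1.58 log2 units (SE 0.29; adjusted p = 0.000249, edgeR's quasi-likelihood test with Benjamini-Hochberg adjustment). Heat-only cultures had 0.164 ± 0.0167 CPM (SD, n = 3) at day 2 and 0.268 ± 0.198 CPM (SD, n = 3) at day 4, and TSA day 4 had 2.91 ± 0.628 CPM (SD, n = 3). Untreated microspores of day 0 had 1.58 ± 0.526 CPM (SD, n = 3), near the TSA day 2 level. TR1 (BnaCnng15100D) had 9.17, 8.98 and 11.3 CPM at day 2 and 5.89 and 8.81 CPM at day 8. Its day 8 libraries were both below the lowest day 2 library, the nearer by little. Its log2 fold change of -0.41 (SE 0.25) did not pass the test (adjusted p = 0.175, edgeR's quasi-likelihood test with Benjamini-Hochberg adjustment), which does not show that its level was the same. Where a near-identical copy exists in the other subgenome, reads may be split between copies in a way the sources do not state, so the level of any single ID is uncertain.

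**Figure D3:**
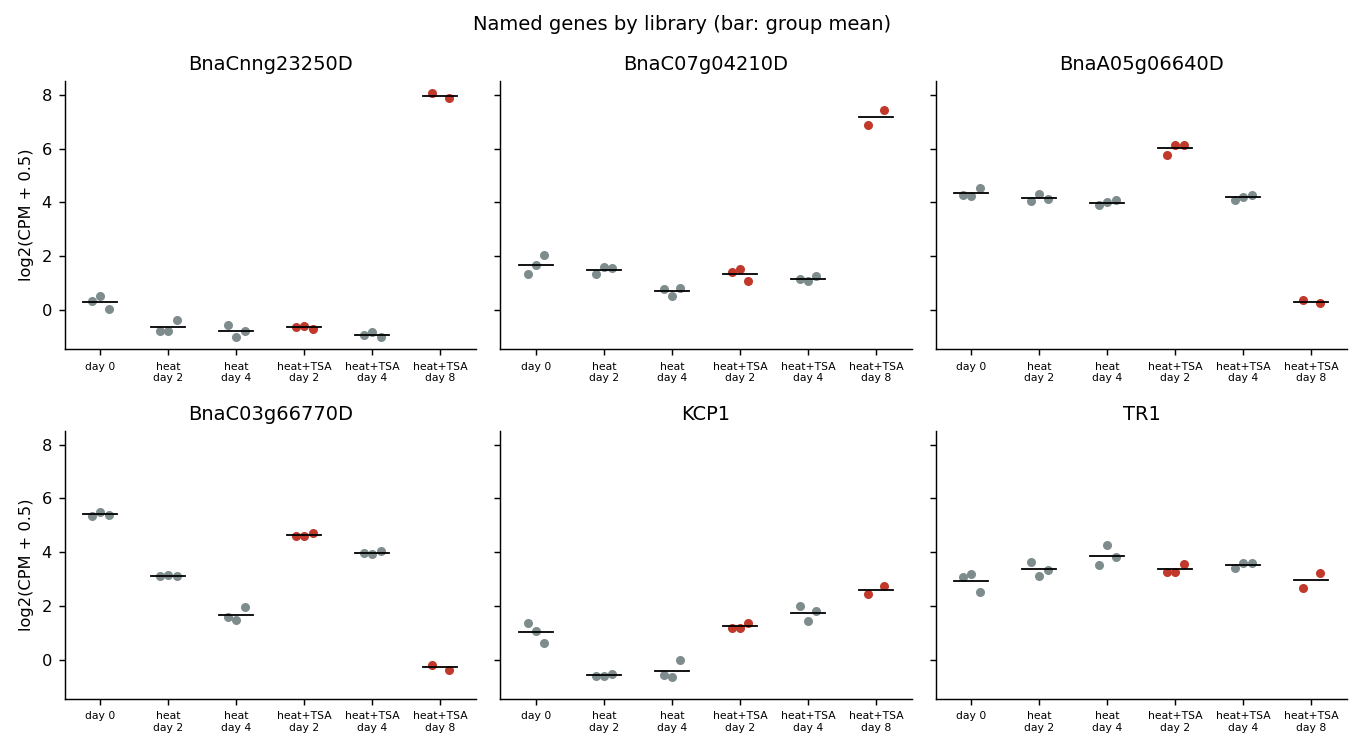
Level of each named gene as log2 of CPM plus 0.5 in all 17 libraries, 1 point per library with the group mean as a bar, and the compared TSA day 2 and day 8 libraries in red. BnaCnng23250D and BnaC07g04210D stand high at day 8 alone, BnaA05g06640D and BnaC03g66770D are lowest at day 8, KCP1 rose and TR1 did not pass the test.

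The question then was how many genes passed from a barely read level to a clear one. A called gene was said to be switched on at a mean under 0.1 CPM at day 2 and of at least 1 CPM at day 8, and switched off in the opposite case. There were 1014 genes switched on (1.58% of the genes tested) and 3549 switched off (5.52%), so that genes switched off were 3.5 times as many. A level of 3 counts stands for 0.0882, 0.0920 and 0.170 CPM in the day 2 libraries and for 0.159 and 0.114 CPM in the day 8 libraries. A gene below 0.1 CPM at day 8 was therefore under what these libraries resolve, and is not shown to be silent. With the limit raised to 2 CPM in the higher group, the counts were 679 switched on and 2045 switched off. The 185 IDs read at day 8 alone meet both level limits by how they were chosen, and all were called. They made up 18.2% of the genes switched on.

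Genes switched on were low in every other group of the series. Their median level was 2.94 CPM at day 8, 0.0200 CPM at day 2, 0.0214 CPM at TSA day 4 and 0.0120 CPM at day 0. The median was 0.0152 CPM in heat-only cultures of day 2 and 0.0275 CPM in those of day 4. Of the 1014, those at 1 CPM or more numbered 12 at TSA day 4, 62 at heat-only day 4, 34 at heat-only day 2 and 9 at day 0. Levels at day 2 and day 8 were fixed by how the genes were chosen, but those of the 4 other groups were not.

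Genes switched off had a median level at TSA day 4 nearer to that of day 2 than to that of day 8. Their median was 2.35 CPM at day 2, 1.86 CPM at TSA day 4 and 0.0191 CPM at day 8. At TSA day 4, 2626 of the 3549 (74.0%) had at least 1 CPM and 10 (0.282%) were under 0.1 CPM. Over all genes tested these shares were 71.2% and 6.96%, so the share at 1 CPM or more was near that of all genes. The groups without TSA were mixed, and their libraries resolve low levels to unlike degrees. A level of 3 counts stands for 0.247 to 0.529 CPM at heat-only day 4 and 0.122 to 0.223 CPM at heat-only day 2. At day 0 it stands for 0.0808 to 0.786 CPM. Their counts of genes under 0.1 CPM are therefore not strictly comparable. At heat-only day 4 the median was 0.980 CPM, with 1768 genes at 1 CPM or more and 511 under 0.1 CPM. Heat-only day 2 had a median of 0.695 CPM, with 1604 and 819 such genes. Day 0 had a median of 0.294 CPM, with 1372 and 1426 such genes. In these groups, in that order, 49.8%, 45.2% and 38.7% of the switched-off genes were at 1 CPM or more. Over all genes tested the shares were 68.8%, 66.0% and 60.9%. Under 0.1 CPM were 14.4%, 23.1% and 40.2% of the switched-off genes, and 8.37%, 11.3% and 18.3% of all genes tested. The order of the groups was thus the same over all genes.

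**Figure D4:**
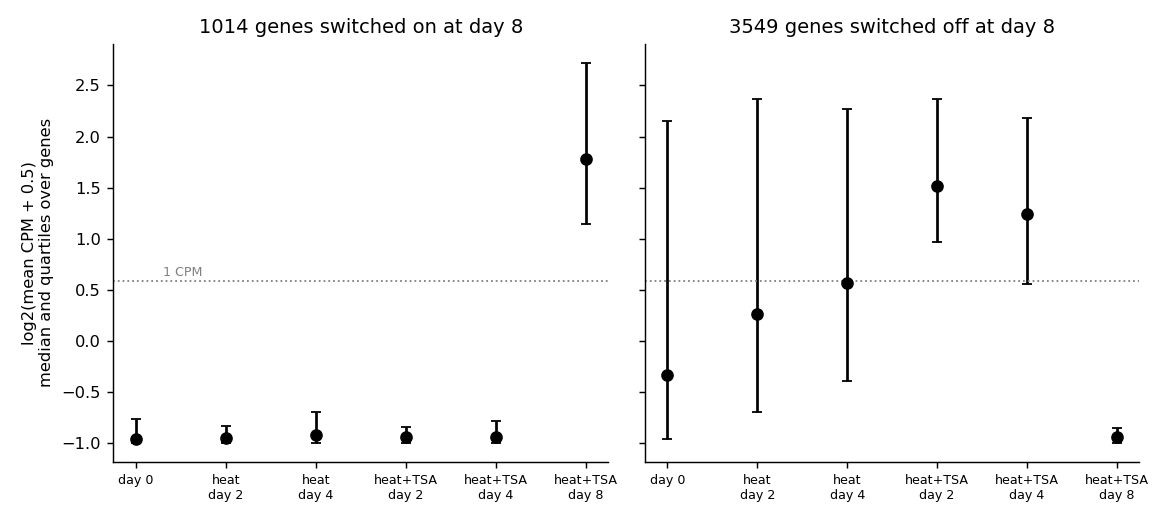
Median and quartiles over genes of the mean level in each group, as log2 of CPM plus 0.5, for the 1014 genes switched on at day 8 (left) and the 3549 switched off (right); the dotted line marks 1 CPM. The genes switched on have medians under 0.1 CPM in all groups but day 8, while those switched off have medians of 2.35 CPM at TSA day 2 and 1.86 CPM at TSA day 4.

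The larger sets too were mostly nearer to their day 2 level than to their day 8 level at TSA day 4. Of the 10556 genes higher at day 8 by at least 1 log2 unit, 93.7% were within 1 log2 unit (of CPM plus 0.5) of their day 2 level at TSA day 4, and 23.7% were within 1 log2 unit of their day 8 level. A gene can be within 1 unit of both. Of the 18332 genes lower by at least 1 log2 unit, 88.8% were within 1 unit of their day 2 level at TSA day 4 and 30.9% of their day 8 level. At day 0, 66.1% of the higher genes and 40.9% of the lower genes were within 1 unit of their TSA day 2 level, and 32.1% and 51.3% were within 1 unit of their TSA day 8 level. These are levels in separate libraries and carry no test. The same shares over all genes tested were not computed, so nothing particular to these sets is read from them. Over all genes tested, TSA day 4 and TSA day 2 libraries correlated at 0.926 to 0.967 in log2 level. The 0.5 CPM added also draws low levels together. The TSA day 4 libraries are not from the named run, and their dose is uncertain.

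The same genes were looked up in 2 comparisons that share no library with day 8 against day 2. Between heat-only day 4 and heat-only day 2, 14263 genes rose (22.2% of the genes tested) and 14918 fell (23.2%). Of the 15666 genes that rose by TSA day 8, 16.2% rose with time in heat-only cultures and 33.3% fell there, and these are 17.8% and 34.9% of the heat-only lists. Of the 21344 genes that fell by TSA day 8, 26.0% rose with time in heat-only cultures and 15.8% fell, and these are 39.0% and 22.6% of the heat-only lists. These shares carry no test of their own. The days also differ, as the heat-only series ends at day 4.

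Between TSA and heat-only cultures of day 4, 25947 genes were higher with TSA (40.3% of the genes tested) and 17566 lower (27.3%). Of the genes that rose by TSA day 8, 48.4% were higher with TSA at day 4 and 17.1% lower, which are 29.2% and 15.3% of those lists. Of the genes that fell by TSA day 8, 41.8% were higher with TSA at day 4 and 29.1% lower, which are 34.4% and 35.3% of those lists. These shares carry no test either.

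Gene IDs name the chromosome to which a gene is assigned, and changes were summed by that name. Of the calls among A IDs 44.1% were rises (17856 called of 30665 tested), and among C IDs 40.8% (19032 called of 33471). The median log2 fold change was -0.13 for A IDs and -0.21 for C IDs. Among IDs placed on a numbered chromosome, those of C02 had the lowest share of rises, with 18.7% of the 2597 genes tested higher and 37.0% lower, and a median of -0.52. The share higher was 21.9% to 28.2% on the other numbered chromosomes. In values added after seeing the data, 15.7% of C02 IDs were higher and 37.3% lower without day 2 replicate 3, and 21.8% and 33.5% outside the low stretch of C02 described below.

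Changes were not spread evenly along the chromosomes. In 1904 windows of 30 tested genes in ID order, the median log2 fold change, taken relative to that of all genes, was above 1 in 2 windows and below -1 in 79 windows. C04 held 19 of the 79 and C02 held 12. The lowest window, BnaC04g00980D to BnaC04g01550D, had a relative median of -5.54, and a window near the other end of C04, BnaC04g52460D to BnaC04g53030D, had -5.26. The highest, BnaC07g32510D to BnaC07g32870D, had 1.30. The number of windows past the limit was 81 in all, 130 without day 8 replicate 1 and 126 without day 8 replicate 2. The genes tested also differed, at 67229 and 67215 against 64330.

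Longer stretches were found with windows of 30 genes expressed at 1 CPM or more at day 2 or day 8, of which there were 1484. Values here are log2 levels minus the day 2 mean, relative to the median of all such genes in the same library. At the start of C04, from BnaC04g00010D to BnaC04g06440D, 7 neighbouring windows were low in both day 8 libraries, at -1.73 and -1.81, or 0.301 and 0.286 on the linear scale. The day 2 libraries were at -0.09, -0.03 and 0.12, and TSA day 4 was at -0.09. The groups without TSA were higher, at 0.574 on day 0, 0.937 at heat-only day 2 and 0.941 at heat-only day 4. Of the 342 tested IDs of this stretch, 223 fell (65.2%) and 18 rose (5.26%), and 72 (21.1%) were switched off. Over all genes tested these shares were 33.2%, 24.4% and 5.52%, but the stretch was chosen for being low at day 8, so nothing is read from its counts. The share of its IDs under 0.1 CPM was 51.2% at day 8, 11.1% at day 2 and 11.1% at TSA day 4. Over all genes tested that share was 19.2%, 7.23% and 6.96%. In the stretch it was 21.6% at day 0, 7.60% at heat-only day 2 and 6.14% at heat-only day 4. Over all genes tested it was 18.3%, 11.3% and 8.37% in these groups.

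On C02, from BnaC02g33230D to BnaC02g44110D, 13 neighbouring windows were at -0.86 and -0.85 in the day 8 libraries, which are 0.553 and 0.554 on the linear scale. The day 2 libraries were at 0.12, 0.11 and -0.24 there. Day 2 replicate 3 was below both other day 2 libraries in 58 of the 60 windows of C02, with medians over these windows of 0.09, 0.09 and -0.19. Against day 2 replicates 1 and 2 alone, the stretch was at -0.97 and -0.93 in the day 8 libraries. Of its 576 tested IDs 285 fell (49.5%) and 45 rose (7.81%). At the start of A07, from BnaA07g00010D to BnaA07g02390D, 4 windows were at -0.74 and -0.78 in the day 8 libraries and between -0.01 and 0.01 at day 2. There 81 of 158 IDs fell (51.3%) and 11 rose (6.96%). These counts too follow from how the stretches were chosen.

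Other stretches differed between the day 8 libraries. Next to the low stretch of A07, from BnaA07g02410D to BnaA07g04430D, replicate 1 was at 0.80 and replicate 2 at -0.76. On C09, from BnaC09g45110D to BnaC09g47650D and from BnaC09g48150D to BnaC09g50830D, replicate 1 was at -0.12 and -0.02 and replicate 2 at -0.79 and -0.81. On A03, from BnaA03g24680D to BnaA03g27230D, replicate 1 was at 0.74 and replicate 2 at -0.12. Further such stretches lay on A10 (-0.24 and 0.52), C01 (0.94 and 0.08) and C07 (1.05 and 0.44). In 54 of the 1484 windows the day 8 libraries differed by at least 0.5, and in 0 windows did any pair of day 2 libraries. That limit was chosen after seeing the data, and the largest difference between day 2 libraries was 0.496, against 1.68 between the day 8 libraries. At a limit of 0.3 there were 215 such windows at day 8 and 42 at day 2, of which 34 were on C02. Windows at or below -0.5 in both day 8 libraries numbered 70. No window had a TSA day 4 mean at or below -0.5, whereas 102 to 128 windows did in the heat-only groups and day 0.

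**Figure D5:**
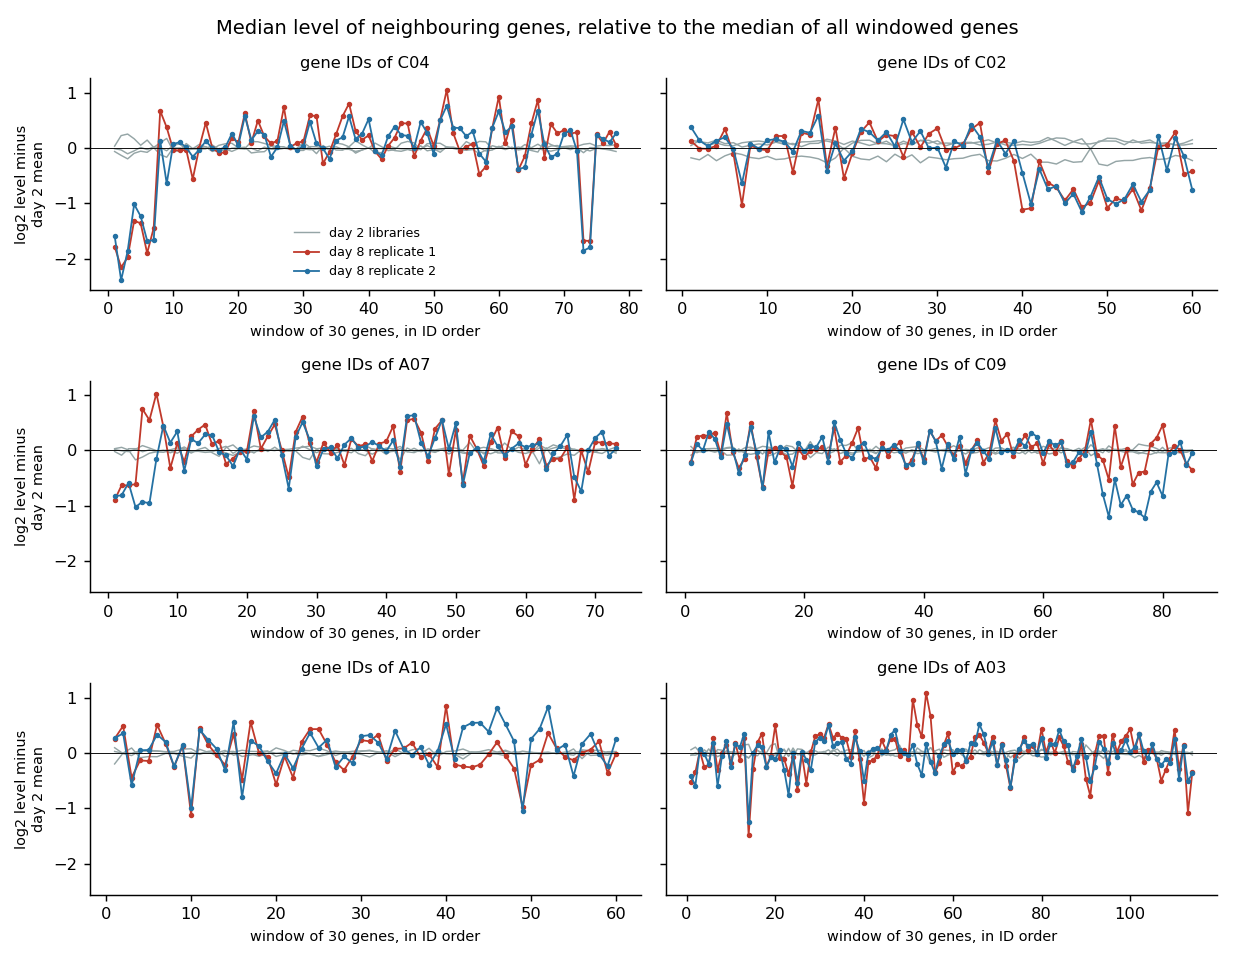
Median log2 level of 30 neighbouring expressed genes minus the day 2 mean, relative to all windowed genes, along the gene IDs of 6 chromosomes (x axis, window number) for the 3 day 2 libraries (grey) and day 8 replicates 1 (red) and 2 (blue). Both day 8 libraries drop together at the start of C04 and in the last part of C02 and part from each other on A07, C09, A10 and A03, and 1 day 2 library lies below the other 2 along C02.

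The 3 stretches low in both day 8 libraries hold 1076 tested IDs, of which 11.3% were switched off, against 5.42% of all IDs outside them, a difference that follows from choosing them as low at day 8. They account for 3.44% of the genes switched off and 2.76% of those that fell. Without them, 36347 genes were called, 15592 that rose and 20755 that fell, with 1001 switched on and 3427 switched off. The bulk of the falls therefore lay outside these 3 stretches. Of the 70 windows low in both day 8 libraries, the stretches on C04, C02 and A07 held 7, 13 and 4. The other low windows stayed in, as did the genes from BnaC04g52460D to BnaC04g53030D, with a relative median of -5.26. The counts thus do not show how many falls lay in low windows in general, which was not tested.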

How the data were processed

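Per the file headers, the authors deposited gene-level raw counts for 17 libraries, their own log2 CPM values, and log2 fold changes with false discovery rates (adjusted p-values). Limma is named in the submitters' processing notes. For aligner, counter, build, annotation and strand the entry is "not given in the sources used here". RNA was DNase-treated and made into TruSeq libraries, per the labels' protocols. All results come from the raw counts, with columns matched to samples by title. The authors' deposited table of this comparison has 38643 calls among 68491 genes, 36.9% of them rises. Of the 63481 genes in both tables, 34284 were called by both, all in the same direction. Both rest on the same libraries, so this is no independent test.

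Of 101040 gene IDs, 12381 had no count and 64330 passed edgeR's filterByExpr. The fit used edgeR 4.0.16 (R 4.3.3), robust dispersions, TMM factors and 1 coefficient per group over all 17 libraries, so that all groups share the estimate of spread. The two-sided quasi-likelihood p was adjusted by Benjamini-Hochberg over all 64330 genes. The SE is the absolute log2 fold change divided by the square root of F. Levels are TMM-scaled CPM, which holds no correction for gene length. Alternatives included DESeq2 1.42.0, other scalings, filters and sets of libraries, leaving out each library and a replicate block. In the named run replicates 1, 2 and 3 are labelled with lanes 4, 5 and 6. The rule for stretches of windows (at least 3 neighbours, at or below -0.5 in both day 8 libraries, or at least 0.5 apart) was chosen after seeing the data, as was leaving their genes out.

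The compared groups, lists and rules were chosen with earlier results of these data known. Named genes are the 2 rising and 2 falling called IDs of lowest p without overlap between groups, averaging 10 CPM or more in either group and with 10 or more counts summed over the lower, and KCP1 and TR1. The reference (assembly Da-Ae) matched 3347 IDs and gave another name for 2. It holds no descriptions, so the gene lists by function and the markers of tissue could not be applied, and the label for cell type was not checked. Sequences are not shown here.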

Additional observations from a re-analysis of the deposited data

How the results depend on the processing

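The number of genes called stayed between 30781 (5 libraries alone) and 37927 (no filter on low counts) in all alternatives, and DESeq2 called 37438. With a replicate block 32989 genes were called over the 8 libraries of the named run, against 35426 without it, and 36354 over all 17 libraries. Differences between replicates 1 and 2 correlated at -0.13 across genes between day 2 and day 8, so the numbers are not shown to pair the cultures. Rises stayed the minority of calls. Their share, 42.3%, was 41.6% with upper-quartile factors, 39.2% with library totals, 37.7% with no filter, 48.2% with a mean of at least 1 CPM, 44.1% with 5 libraries, 43.0% with 8, 41.0% with 8 and a replicate block, 41.5% with 17 and a replicate block, 42.9% without the genes of the 3 low stretches, and 41.3% to 43.6% leaving out each library. For A IDs the share was 40.8% with library totals, 43.3% with upper-quartile factors and 42.6% to 45.3% leaving out each library. For C IDs it was 37.7% with library totals and 39.7% to 42.0% leaving out each library, and it was below that of A IDs in all 8 alternatives run. Genes switched off fell to 2045 at a limit of 2 CPM. The day 8 minus day 2 share of counts in the most abundant genes turned from -0.65 percentage points for 100 genes to 0.884 for 1000. Windows past the limit numbered 20 with 60 genes a window and 79 to 130 leaving out each library. The 6 named genes kept direction and side of the threshold in all 15 alternatives. The cause of these shifts was not tested. Depth limits what is said of genes under 0.1 CPM. The only called genes to change direction in any refit were 4, without day 8 replicate 1. The alternatives planned for gene lists by function were not run, since the lists could not be applied.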
